A study of Mus musculus with 5 samples.

Results

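The genes examined here encode 10 mouse enzymes that write or erase methylation of lysine 36 on histone H3 (H3K36). They were chosen by name out of 21887 RefSeq protein-coding genes, with earlier results of these data known. The 6 writers were Setd2, Nsd1, Nsd2, Nsd3, Ash1l and Setd5, and the 4 erasers were Kdm2a, Kdm2b, Kdm4a and Kdm4c. Their transcribed bodies were searched for H3K36me3 itself, the trimethylated form, in mTEClo. Sorted as CD80-low, they belong to the medullary epithelium of the thymus and came from wild-type B6 mice with no further treatment in the labels. The data were 2 ChIP libraries made with an antibody to H3K36me3 (series 1 and series 2), each called as broad peaks against input DNA made without antibody from the same kind of cells (2 input libraries for series 1 and 1 for series 2). All 5 libraries share strain, tissue and genotype. Which mouse gave which library is not in the labels, and whether the 2 series differ by animal or by handling cannot be told apart.

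H3K36 methylation is added in steps. SETD2, which travels with elongating RNA polymerase II, makes most of the trimethylated form, whereas the NSD enzymes and ASH1L make the lower states, and the activity of SETD5 is debated. KDM2A and KDM2B remove the lower states, and KDM4A and KDM4C remove trimethylation of lysine 36 and of lysine 9. The mark accumulates along transcribed gene bodies and is low at promoters, where transcription starts. Medullary thymic epithelium is known for transcribing an unusually broad part of the genome, including genes otherwise limited to other tissues.

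Series 1 held 7231 peaks with a median width of 483 bp and series 2 held 10243 with a median width of 222 bp. No read counts come with the peaks, so depth is unknown. Where no peak was called, the signal of that library did not pass the peak caller's settings, which are not stated, and the mark may still be present. Of 12 marker genes of medullary epithelium, peaks were found in 3 in series 1, in 3 in series 2 and in 1, the keratin gene Krt5, in both. Epcam (15.1 kb) and Krt14 (4.3 kb) had none, and Krt5 itself spans 5.8 kb. None of 10 thymocyte markers, Ptprc and Cd3e among them, had a peak in either series. Counted in either series, where 27.4% of all coding genes were hit, peaks touched 5 of the 12 medullary epithelial markers, 3 of 6 B cell markers, 3 of 6 myeloid and dendritic markers, 2 of 5 fibroblast markers and 1 of 5 endothelial markers. The part of such cells in the results below was not tested.

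For 2 of the genes the promoter table holds a single start site and it lies at the 5′ edge of the gene; Kdm4c has a start site at its edge too, but a second one further in, and is left out. The bases just outside the annotated gene are shown because positions along these genes are counted from that edge, and because no peak reached either stretch. Each is printed 5′ to 3′ on the gene's strand with the dinucleotide CG in capitals, from RefSeq on GRCm38.p6. The Setd2 stretch is chr9:110532347-110532499 on the plus strand (153 bases, 16 CG), and the Kdm4a stretch is chr4:118180091-118180293 on the minus strand (203 bases, 11 CG).
Setd2: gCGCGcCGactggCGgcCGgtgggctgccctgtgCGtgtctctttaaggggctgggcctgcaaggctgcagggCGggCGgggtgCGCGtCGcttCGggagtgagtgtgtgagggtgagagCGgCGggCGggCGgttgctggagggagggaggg
Kdm4a: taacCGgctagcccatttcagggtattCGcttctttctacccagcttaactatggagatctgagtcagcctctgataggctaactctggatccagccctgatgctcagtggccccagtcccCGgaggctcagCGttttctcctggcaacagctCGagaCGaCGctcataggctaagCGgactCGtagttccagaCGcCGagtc

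The whole window of 300 bases around the Setd2 start held 38 CG, and 6.47% of 21263 such windows of coding genes held as many. The Kdm4a window held 13, which is also the median of all windows, and 50.9% held as many. At least 1 CG, which reads the same on both strands, was in 95.4% of windows. Windows were listed for 5 of the 10 genes (Setd2, Setd5, Kdm2b, Kdm4a and Kdm4c), and no window of these 5 was touched by a peak. Peaks at start sites were rare throughout: 0.0572% of 17492 coding genes had one in series 1 and 0.0743% in series 2.

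Most of the enzyme genes carried H3K36me3 peaks. In series 1, 8 of the 10 held at least 1 bp of a peak, where 16.3% of all coding genes did. In series 2 the count was 7 of 10, against 19.5% of all coding genes. The same 7 genes were hit in both series, against 8.42% of all, and 8 were hit in either, against 27.4%. The 7 were Setd2, Nsd1, Nsd3, Setd5, Kdm2a, Kdm4a and Kdm4c. Ash1l had peaks in series 1 alone, and Nsd2 and Kdm2b had none. By role, 4 of 6 writers and 3 of 4 erasers were hit in both series.

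These genes are long, and long genes are hit more often. Their spans ran from 43.1 kb (Kdm4a) to 163.4 kb (Kdm4c), with a median of 97.3 kb against 17.2 kb over all coding genes. Among the 4324 coding genes within that range of lengths, 33.2% were hit in series 1, 40.1% in series 2 and 19.0% in both. The counts of 8, 7 and 7 out of 10 lie above these shares too. With 10 genes chosen by name and 1 library per series there is no replicate test of that difference, and none was made. The list was also drawn up with earlier results of these data known, so the counts are a description and not independent support.

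**Figure D1:**
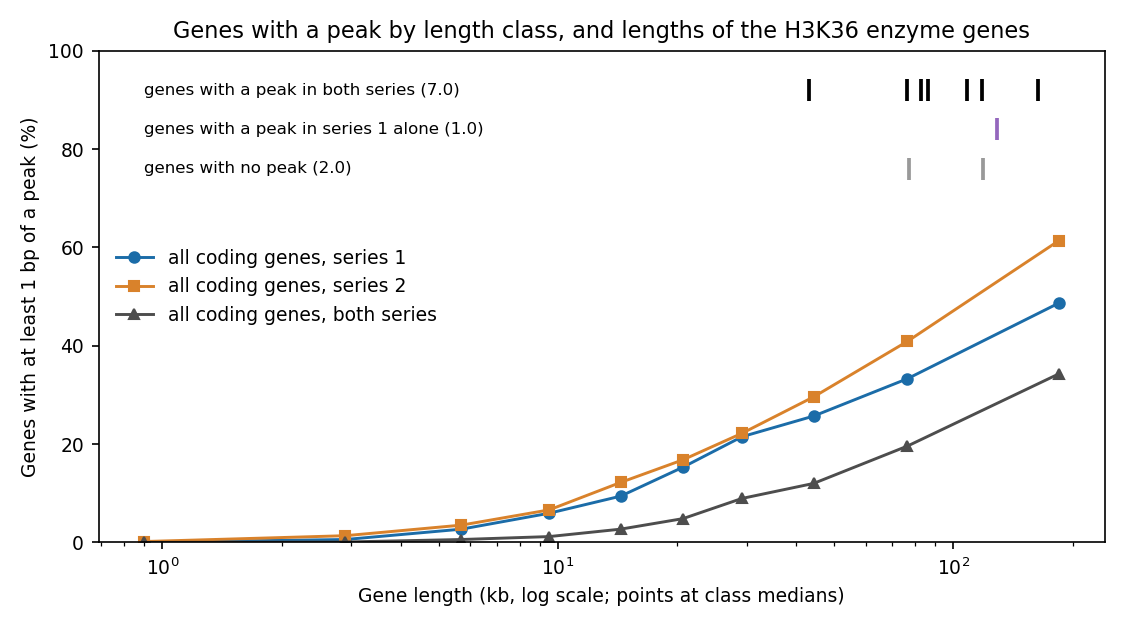
Share of coding genes touched by a peak over 1 bp or more (%, y axis) in 10 classes of gene length (x axis, kb, log scale), for series 1, series 2 and both; each point is a class of about equal size drawn at its median length, and ticks at the top mark the lengths of the 10 enzyme genes. The shares climb with length to 48.7% and 61.4% in the longest class, and the 2 genes without a peak, at 77.3 and 118.6 kb, lie within the lengths of the others.

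Setd2, the main enzyme of H3K36 trimethylation, lies on chromosome 9 from 110532500 to 110618633 (mm10, as for all positions here). Series 1 had 1 peak of 1099 bp in it with a score of 26, and series 2 had 2, of 230 and 217 bp with scores of 18 and 11. They covered 1.28% of the gene in series 1 and 0.519% in series 2, a mean of 0.897% ± 0.535 (SD, n = 2). The lists put them at different places: the series 1 peak was centred 15.6 kb from the 5′ end of the gene and those of series 2 at 43.8 and 47.7 kb. Another series 2 peak of 688 bp lay 809 bp beyond the 3′ end and overlapped no coding gene.

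Of the NSD genes, whose products make dimethylated H3K36, Nsd1 was the best covered, Nsd3 had little and Nsd2 had none. Nsd1, on chromosome 13 from 55209782 to 55318325, held 2 peaks in series 1, which covered 1.38% of it, and 6 in series 2, which covered 3.60%. It was the 1 gene of the 8 with peaks where series 2 covered more than series 1. As many as 6 peaks of series 2 occurred in 0.187% of all coding genes and in 1.60% of the genes in the longest of the 10 length classes, to which Nsd1 belongs. Its series 2 peaks were spread from 4.34 to 98.0 kb along the 108.5 kb span, and those of series 1 lay at 36.7 and 68.4 kb. Positions in Nsd1, Nsd3, Ash1l and Kdm2a are counted from the end with the lower coordinate, because the tables used give them no strand.

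Nsd3, on chromosome 8 from 25601601 to 25719667, had 1 peak in each series, of 474 bp with a score of 41 and of 224 bp with a score of 12. They covered 0.401% and 0.190% of the span and lay 13.2 kb apart. Nsd2, on chromosome 5 from 33820676 to 33897966, had no peak over 77.3 kb. The nearest series 1 peak lay 3.5 kb beyond its upper end, within the neighbouring Nelfa, which encodes a subunit of the negative elongation factor NELF, and had a score of 53. The nearest series 2 peak was 41.5 kb away on the other side, in Letm1. Nsd2 was thus without a peak where its 2 relatives had one in each list. Of all genes in its length class 33.3% were hit in series 1 and 40.9% in series 2.

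Ash1l encodes a methyltransferase that keeps developmental genes active, and lies on chromosome 3 from 88950414 to 89079375. Its 2 series 1 peaks, of 404 and 305 bp with scores of 30 and 24, lay at 69.6 and 73.8 kb and covered 0.550% of the span; series 2 had none. Setd5, on chromosome 6 from 113077262 to 113153432, had 2 peaks in each series, which took up 0.807% and 0.574% of the gene. All 4 were centred between 32.2 and 40.8 kb from the 5′ edge of its span, within a gene of 76.2 kb. The only start site listed for Setd5 lies 27.7 kb inside that edge, so these are not distances from it. The mean share of Setd5, 0.691% ± 0.165 (SD, n = 2), had the least spread relative to its size among the 7 genes hit in both series.

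Among the erasers, Kdm2a had the largest covered share that any of the 10 enzyme genes reached in 1 library. It encodes a demethylase of dimethylated H3K36 that binds unmethylated CpG islands, and lies on chromosome 19 from 4316144 to 4398721. Series 1 had 2 peaks in it, of 897 and 2637 bp with scores of 13 and 27, and 99.9% of all series 1 peaks were narrower than the wider of them. Series 2 had 3 peaks of 218, 292 and 218 bp. The share was 4.28% in series 1 and 0.882% in series 2, a ratio of 4.85. Its paralogue Kdm2b, which directs a Polycomb complex to CpG islands, lies on chromosome 5 from 122870664 to 122989270 and had no peak over 118.6 kb. In Kdm2b's neighbourhood the closest peaks were 95.8 kb away in series 1 and 194.4 kb away in series 2, each within another gene.

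Kdm4a and Kdm4c encode demethylases that act on the trimethylated form itself. Kdm4a, on chromosome 4 from 118136957 to 118180090, had 1 peak in each series, of 420 and 220 bp with scores of 25 and 32. They covered 0.974% and 0.510% of the span and were centred 10.9 and 6.55 kb from the 5′ end. Kdm4c, on the same chromosome from 74242497 to 74405864, held 5 peaks in series 1 and 2 in series 2. The 5 peaks were 256 to 1737 bp wide, had scores of 16 to 48 and covered 2.89% of the span, and the 2 of series 2 covered 0.269%. As many as 5 peaks of series 1 occurred in 0.251% of all coding genes and in 1.78% of the longest class, which includes Kdm4c. Of the 7 genes hit in both series, the libraries were furthest apart here, with 10.7 times the share in series 1.

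**Figure D2:**
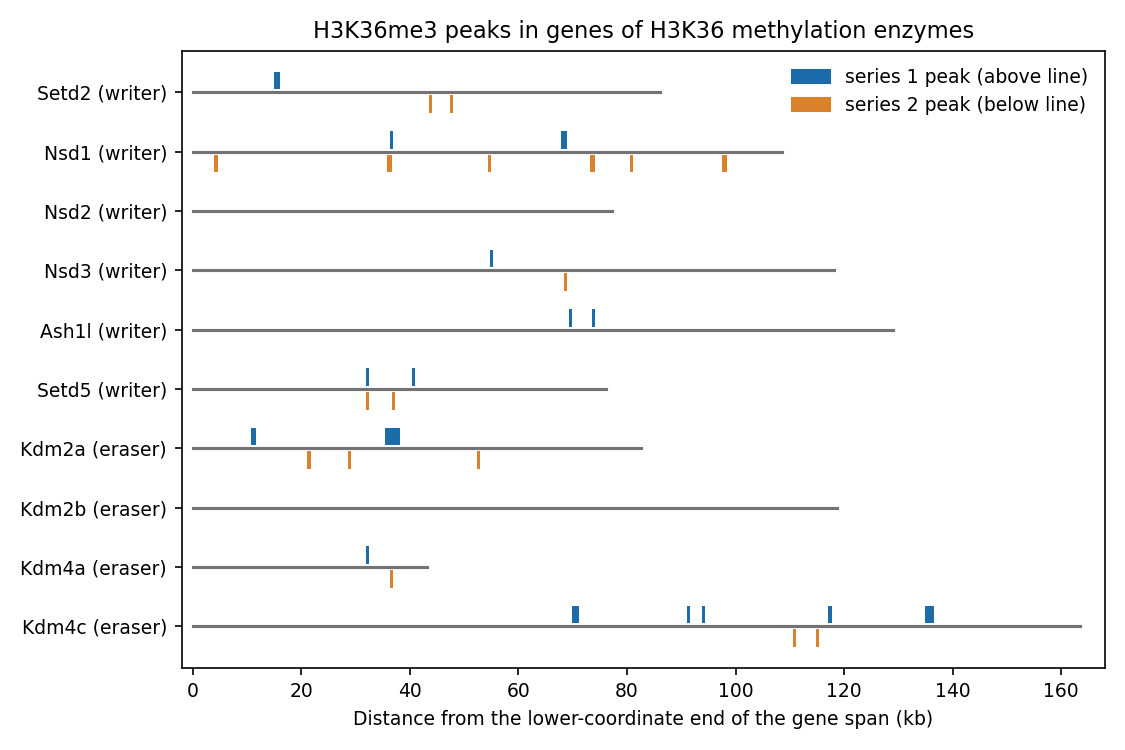
Peaks along the 10 enzyme genes (rows), with distance from the end of lower coordinate in kb on the x axis; grey lines are gene spans, blue bars above are series 1 peaks and orange bars below are series 2 peaks, with bars under 0.6 kb drawn at 0.6 kb. Only in Nsd1 and Setd5 do a blue and an orange bar fall on the same bases, and the lines of Nsd2 and Kdm2b are bare.

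The order of the mean covered share was Kdm2a (2.58% ± 2.40), Nsd1 (2.49% ± 1.57), Kdm4c (1.58% ± 1.85), Setd2, Kdm4a (0.742% ± 0.328), Setd5, Nsd3 (0.296% ± 0.150) and Ash1l (0.275% ± 0.389; SD, n = 2 for each), then Nsd2 and Kdm2b at 0. Between neighbours in this order the difference passed the larger of the 2 SDs only from Setd5 to Nsd3, where it was 0.395 percentage points. For the other neighbours the difference was within that SD. The SD over 2 libraries also holds any difference between the lists as a whole, and the order within each library was not compared. Genes further apart in the order were not compared either. Series 1 covered more of the gene in 7 of the 8 genes with a peak, although it had more peaks in only 2 of them and fewer in 3. Summed over the 10 genes, peaks covered 1.30% of the span in series 1 and 0.639% in series 2. Over genes in the same range of lengths the shares were 0.397% and 0.275%, and over all coding genes 0.315% and 0.224%.

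**Figure D3:**
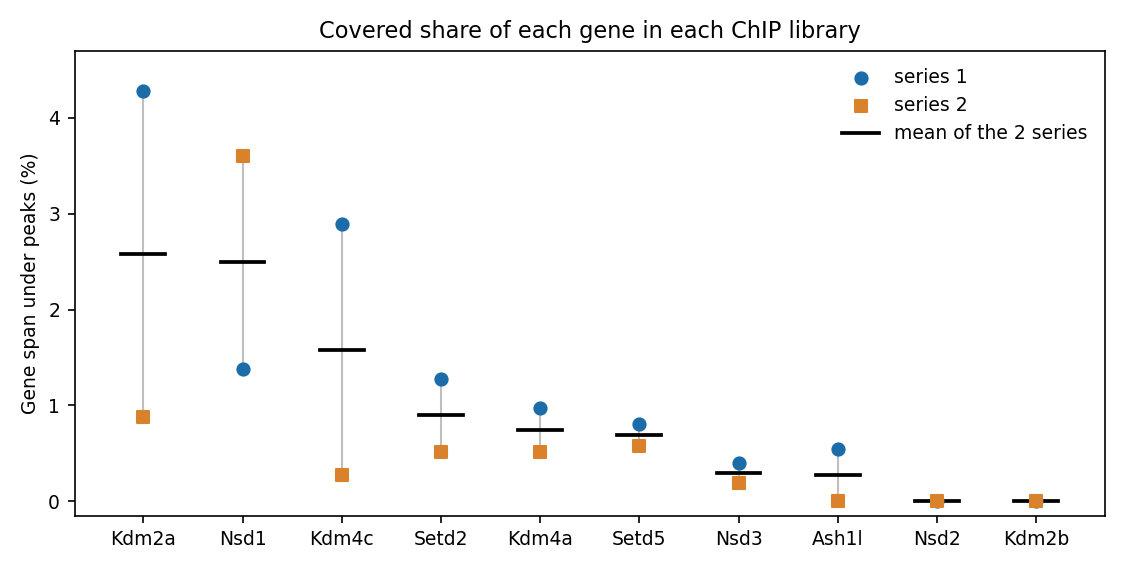
Share of each gene span under peaks (%, y axis) in series 1 (blue circles) and series 2 (orange squares), with the mean of the 2 libraries as a black bar; where both are 0 the symbols coincide. Kdm2a and Kdm4c reach 4.28% and 2.89% in series 1 alone, and Nsd1 reaches 3.60% in series 2.

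In 2 of the 7 genes hit in both series, a series 1 and a series 2 peak overlapped, and in 0 when peaks scoring under 20 were dropped, since the series 2 peak in Nsd1 scored 13 and the series 1 peak in Setd5 scored 11. In Nsd1 they shared 232 bp (55246276 to 55246507), which was 68.2% of the series 1 peak and 26.5% of the series 2 peak. In Setd5 they shared 200 bp (113109438 to 113109637), or 51.5% and 90.5%. Over all 1843 coding genes hit in both series 17.6% had such an overlap, and over the 820 within the range of lengths 15.7% did. In the other 5 genes the closest pair of peaks was 1.73 kb apart in Kdm4c, 4.04 kb in Kdm4a, 6.50 kb in Kdm2a, 13.2 kb in Nsd3 and 27.5 kb in Setd2.

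Every peak in the 10 genes lay wholly within the gene span. For Setd2, Setd5, Kdm4a and Kdm4c, which have both a strand and peaks, centres lay between 15.2% and 83.1% of the way from the 5′ to the 3′ end. Of 9 series 1 peaks in these genes, 1 was in the first 25% of its gene and 1 in the last 25%; of 7 series 2 peaks, 1 was in the first and 0 in the last. In all genes of this range of lengths 16.4% and 16.6% of peaks were in the first 25% of the gene and 33.5% and 31.0% in the last, for series 1 and 2. These few peaks are given as a description, and they leave out the genes without a strand. Positions are counted from the edge of the span. The start site listed for Setd5 lies 27.7 kb inside that edge, and Kdm4c has a second one further in. In Nsd1 the outermost series 2 peaks lay at 4.0% and 90.2% of the span, so that 1 of them is in the last 25% whichever the strand. No peak in the 10 genes overlapped another annotated gene, coding or not, so none is shared with a neighbour.

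The peaks themselves were of moderate score. The 16 peaks of series 1 had scores of 11 to 48 (median 25.5, against 21.0 for the whole list), and the 17 of series 2 had 11 to 32 (median 17.0, against 16.0). The score is a whole number given by the authors for each peak, and its scale is not stated. None reached 50, a score that 453 peaks of series 1 and 254 of series 2 did. In series 1, 5 of the 16 were wider than 1 kb (31.2%, against 15.0% of the list); they lay in Setd2, Nsd1, Kdm2a and Kdm4c. In series 2, none of the 17 was, where 4.06% of the list were, which is also too few to read from 17 peaks. Of the 17, 10 (58.8%, against 65.6% of the list) were within 9 bp of the narrowest peak.

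**Figure D4:**
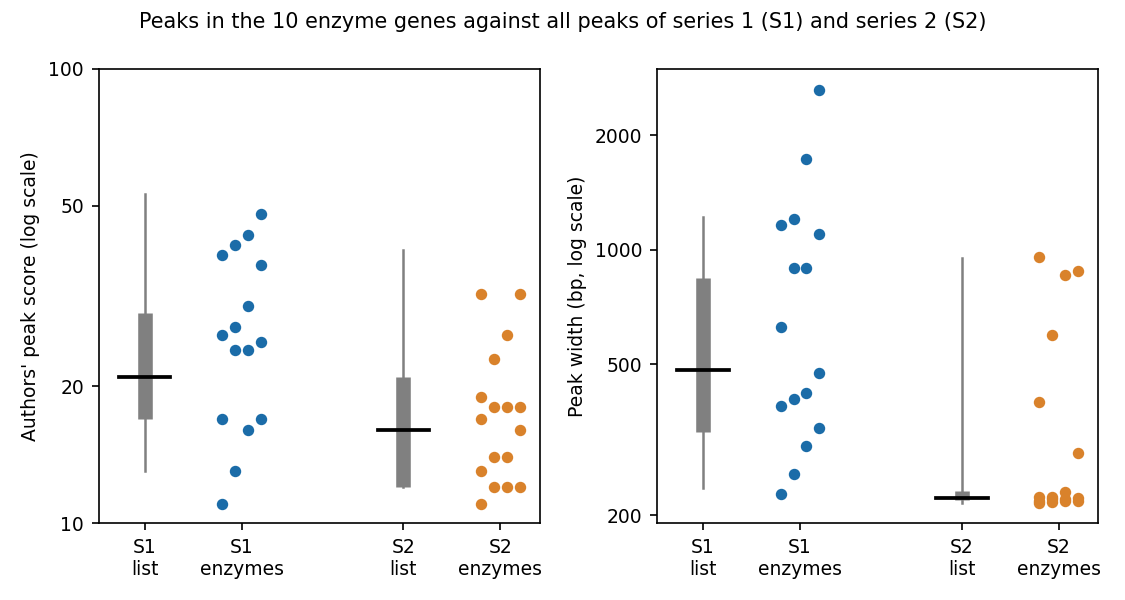
Authors' peak score (left, log scale) and peak width in bp (right, log scale) for every peak in the 10 enzyme genes (points), beside all peaks of the same list (thick grey bar, interquartile range; thin line, 5th to 95th percentile; black line, median). The points of series 1 reach widths of 2637 bp, while most of series 2 sit at the narrow end near 222 bp.

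The count in both series depended on series 2 peaks of low score or least width. When peaks scoring under 20 were dropped, both libraries hit 4 genes (Nsd1, Setd5, Kdm2a and Kdm4a), against 3.30% of all coding genes and 7.28% in the range of lengths. Without the narrowest peaks of each list, 3 were (Setd2, Nsd1 and Kdm2a), against 4.95% and 11.0%. In series 1 alone, 8 genes were hit under both settings. Of all coding genes 10.9% and 15.9% were, and in the range of lengths 22.3% and 32.4%. Both settings bear more on series 2 by construction. A score of at least 20 was held by 55.8% of all series 1 peaks and 35.7% of all series 2 peaks. The second setting can change series 1 little, since only 3.68% of its peaks were within 9 bp of the narrowest. Of the 10 genes, only Nsd1 had at least 1% of its span under peaks in each series, a rule that 2.28% of all coding genes met.

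Genes listed beside the 10 as other H3K36 enzymes or their relatives were hit at about the share of all coding genes. Of 7 such genes (Smyd2, Setmar, Prdm9, Kdm4b, Kdm4d, Kdm8 and Riox1), 1 was hit in series 1 (14.3%, against 16.3% of all coding genes), 1 in series 2 (14.3% against 19.5%) and 0 in both (against 8.42%). The 2 were Kdm4b, covered by 2 series 1 peaks over 0.763% of its length, and Kdm4d, covered by 1 series 2 peak over 0.571%. Both were singled out after their values were seen. Kdm4d was listed as a relative of Kdm4a and Kdm4c, and its product is not an established H3K36 demethylase. The series 2 count of this list rests on Kdm4d alone. These genes are shorter, with a median of 21.3 kb, and in the length class that holds this median 15.3% of genes were hit in series 1 and 16.8% in series 2. Among 19 partners of the pathway (RNA polymerase II and its elongation factors, an RNA-binding partner of SETD2, a reader, and the Polycomb complex of KDM2B), 10 were hit in series 1 (52.6%, against 16.3% of all coding genes), 8 in series 2 (42.1% against 19.5%) and 5 in both (26.3% against 8.42%). The partners had a median length of 27.4 kb. In the length class that holds this median 21.5% of genes were hit in series 1, 22.2% in series 2 and 8.95% in both. Polr2a, the largest subunit of RNA polymerase II, was covered over 8.96% ± 2.51, ahead of the elongation factor genes Supt5 (2.70% ± 2.07) and Rtf1 (1.76% ± 0.481) and of Usp7 (1.21% ± 0.0869; SD, n = 2 for each), a deubiquitinase of that complex.

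Enzymes of other histone lysines, many of them also long genes, carried peaks as well. Of 20 writers of other lysines, 9 were hit in series 1, 13 in series 2 and 6 in both (45.0%, 65.0% and 30.0%, against 16.3%, 19.5% and 8.42% of all coding genes). Kmt2a (2.89% ± 2.13), Kmt2d (1.85% ± 0.625), Ehmt1 (1.75% ± 0.415) and Kmt2c (0.973% ± 1.01) were the best covered of those hit in both (SD, n = 2). Of 13 erasers of other lysines, 10, 9 and 7 were hit (76.9%, 69.2% and 53.8%, against the same shares of all coding genes), with Kdm5a (4.77% ± 3.28), Kdm5b (3.73% ± 4.85), Kdm3b (2.42% ± 0.751) and Kdm1b (1.45% ± 1.28) leading (SD, n = 2). In these 4 lists together, 18 of 59 genes were hit in both series (30.5%, against 8.42% of all coding genes). Among the 24 of them within the range of lengths of the H3K36 enzymes, 18 were hit in series 1, 15 in series 2 and 12 in both, beside 8, 7 and 7 of 10. The difference between these shares was not tested.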

How the data were processed

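Analysed were the broad peak lists of 2 H3K36me3 ChIP libraries of mTEClo. The submitters' processing notes name Bowtie2, SAMtools and MACS2, with mm10 as the build; how they were set is not stated there. By the names of its peaks, series 1 was called against 2 inputs together and series 2 against 1; the inputs themselves were not analysed here. The authors deposited positions and a whole-number score per peak, without fold, p-value or counts. Scores of single peaks were not compared between lists, but the same score cutoffs were applied to both. Whether a cutoff means the same in each list is unknown, since the scale of the score is not stated.

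Gene spans (21887 protein-coding genes on autosomes, X and Y) came from RefSeq on GRCm38.p6, the assembly of mm10; all 113 listed genes matched. A gene counted as hit from 1 bp. Covered share is the percentage of the span under peaks. Length classes are 10 equal groups of genes. Strand came from the promoter table (250 bases before to 50 after a start). Coverage code was tested on simulated data (Python 3.11.15, numpy 2.4.6, pandas 2.3.3). No statistical test was run, since each series is 1 library. The genes and lists were chosen with earlier results of these data known. Named were all 10 enzymes, the listed cell type markers where they serve, and up to 4 best covered genes, hit in both series, of each other list.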

Additional observations from a re-analysis of the deposited data

How the results depend on the processing

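The counts of enzyme genes hit in series 1, in series 2 and in both (8, 7 and 7) moved by no more than 1.5 times when the middle base of a peak had to lie in the gene, when bases in other coding genes were left out, and when spans were extended by 5 kb, which gave 9, 7 and 7. With that extension 18.5%, 22.8% and 9.43% of all coding genes were hit. The gene added was Nsd2, through the series 1 peak in the neighbouring Nelfa. With a score of at least 20 the counts were 8, 4 and 4, where 10.9%, 9.01% and 3.3% of all coding genes passed. Without the narrowest peaks they were 8, 3 and 3, where 15.9%, 9.76% and 4.95% of all did. A share of at least 1% of the span left 4, 1 and 1, where 9.12%, 7.1% and 2.28% of all coding genes passed. A score of at least 50 left 0 in all 3, where 1.48%, 0.763% and 0.0868% of all passed. A share of at least 10% also left 0 in all 3, and 0 coding genes in the enzymes' range of lengths passed it. Fewer peaks or genes can pass these settings by construction. Leaving out either library gave 7 to 8 genes, which by construction are the counts of the remaining series and no check of the count in both. The overlaps in 2 genes became 0 at a score of at least 20 and stayed at 2 with 50% of the narrower peak overlapped or a gap of 1 kb. The median covered share of 0.716% was 0.370% at a score of at least 20, 0.381% without the narrowest peaks and 0.390 to 0.891% in single libraries. Of the 59 genes of the other chromatin and pathway lists, the 18 hit in both series became 8 at a score of at least 20, 9 at 1% of the span, 0 at a score of 50 or 10% of the span, and 30 to 31 in single libraries. Of all coding genes 8.42% were hit in both series. This became 3.3% at a score of at least 20, 2.28% at 1% of the span, 0.0868% at a score of 50 and 0.0183% at 10% of the span. In single libraries 16.3% and 19.5% of all coding genes were hit. No paired analysis of ChIP and input was possible, because there were no separate values for the inputs. The values are peaks of 1 ChIP library per series, with no test. Depth is unknown, so absence of a peak is no measure of absence of the mark.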
